A study of Mus musculus with 2 samples.

Results

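Isolated CtBP2 sites were short stretches of the genome that were rich in CtBP2 ChIP reads and lay far from any other such stretch. Each was a run of 1 or 2 adjacent 1 kb bins with at least 30 ChIP reads and more than 8 input reads per bin. No other bin with at least 30 ChIP reads, called a dense bin below, lay within 150 kb on either side. Of 18703 runs on chromosomes 1 to 19 and X that passed both read limits, 2127 were isolated, 1466 of them 1 kb and 661 of them 2 kb wide. They were set beside 15564 close sites, which were also 1 or 2 kb wide but had another dense bin within 150 kb. The remaining 1012 runs were wider.

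CtBP2 is a co-repressor of transcription that senses NAD(H). It does not read DNA itself and is recruited by DNA-binding partners, many of which carry a short PXDLS-type motif. It brings histone-modifying enzymes such as demethylases and deacetylases to those places. In pancreatic beta cells it has been studied as a regulator of insulin gene expression. MIN6 is a mouse insulinoma line that makes and secretes insulin.

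MIN6 cells in regular culture, with no other treatment named, were fixed with formaldehyde and their chromatin was sheared by sonication. The ChIP library came from chromatin precipitated with an antibody to CtBP2, and the input library from chromatin with no antibody. There was 1 library of each, so no test between them was possible. All intervals below are 95% and cover counting error only, since reads without molecular identifiers are not independent molecules. A precipitation with control IgG is named in the protocol and is not analysed here.

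The ChIP library held 34890624 deposited lines, each 1 aligned read, and the input 20896067. After 1 read was kept per chromosome, 5′ end and strand, 8465978 ChIP and 12441172 input reads remained on these chromosomes. Ratios below are ChIP reads over input reads scaled by the total of kept reads, a factor of 0.6805. Positions are 1-based on mouse build mm9. No sequence or gene annotation of that build was used here, so sites are named by position alone.

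Sites were chosen by their ChIP reads, their input reads and their distance to other dense bins, so these are given first, as a description with no test. Isolated sites held from 30 to 1386 ChIP reads, with a median of 84 and an interquartile range of 49 to 172. Close sites had a median of 168. Input reads at isolated sites ran from 9 to 579 with a median of 35, beside a median of 57 at close sites. The ratio had a median of 3.86 with an interquartile range of 2.87 to 5.30, and ran from 0.242 to 19.1. At close sites its median was 4.64. A ratio of at least 3 was found at 1526 isolated sites, or 71.7%, where 74.1% of all runs reached it. The densest bin held at least 200 ChIP reads at 405 isolated sites, or 19% (17.4 to 20.8%, Wilson), beside 40.7% of all runs. Isolated sites were thus shallower than close sites at the median, and the deepest of them held more than 1000 reads.

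Together the isolated sites covered 2.79 Mb and held 361018 ChIP reads, 4.26% of the library, and 101378 input reads, 0.815% of the library. Their pooled ratio was 5.23 (5.20 to 5.27), beside 5.93 at close sites and 5.88 over all runs. When the input was instead scaled by the reads in bins below 30 ChIP reads, a factor of 0.2817, the pooled ratio at isolated sites was 12.6. The nearest other dense bin lay at a median of 229 kb, with an interquartile range of 180 to 319 kb. The dense bin on the farther side lay at a median of 449 kb. At 14 sites there was no dense bin on 1 side of the chromosome.

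The site with the most ChIP reads was at chr10:39451001-39453000, with 1386 ChIP reads (1314 to 1461) and 195 input reads. Its ratio was 10.4 (8.98 to 12.2), and the next dense bins lay 360 kb to the left and 165 kb to the right. The next by ChIP reads were chr1:166387001-166389000 with 1234 ChIP and 165 input reads and chr10:107598001-107600000 with 1191 ChIP and 153 input reads. The second chromosome 10 site was 600 kb from the dense bin on its left and 168 kb from the one on its right. The site at chr3:100489001-100491000 held 1122 ChIP and 118 input reads and had the highest ratio of the 10 deepest, 14.0 (11.6 to 17.0). All 10 deepest sites were 2 kb wide, where 661 of all 2127 isolated sites were. The ranking sums reads over the bins of a site and so favours the wider ones. The 10 lay on 8 chromosomes and had ratios from 9.23 to 14.0. None of the 10 was on chromosome X, which held 193 of all 2127 isolated sites, so their absence there carries little weight. Their input was raised as well, from 118 to 195 reads.

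The 10 deepest and the 10 with the largest ratio shared 0 members. Unrelated lists of that length among 2127 sites would seldom share any. Over all isolated sites the median ratio rose with depth, from 2.78 where the densest bin held 30 to 59 ChIP reads to 8.2 from 240 on. Of the 10 with the largest ratio, 5 lay on chromosome X, which held 193 of all 2127 isolated sites. The first was chrX:149932001-149934000, with 533 ChIP reads, 41 input reads and a ratio of 19.1 (13.9 to 26.9). It stood 489 kb from the next dense bin on the left and 1214 kb from the one on the right. The site at chrX:66613001-66614000 held 312 ChIP and 26 input reads, a ratio of 17.6 (11.8 to 27.4). The largest ratio off chromosome X was 16.1 at chr10:20672001-20673000, with 481 ChIP and 44 input reads. The intervals of these ratios overlap, so their order is not resolved by the counts. The 10 sites held 25 to 73 input reads, fewer than any of the 10 deepest.

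The farthest site was chr14:97249001-97250000, whose next dense bins lay 2007 kb to the left and 1317 kb to the right. It held 52 ChIP reads and 32 input reads, a ratio of 2.39 (1.51 to 3.83). A deeper remote site, chr10:3134001-3136000, held 504 ChIP and 139 input reads, a ratio of 5.33. No dense bin lay on its left and the next lay 1287 kb to its right. Its rank among the remote sites rests on the right side alone. At chrX:25631001-25632000 there were 65 ChIP and 14 input reads, a ratio of 6.82 (3.79 to 13.2), with dense bins 1089 and 1578 kb away. The 5 most remote sites therefore ranged from 40 to 504 ChIP reads.

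At the limit of 30 ChIP reads stood sites such as chr1:27812001-27813000, with 30 ChIP and 24 input reads and a ratio of 1.84. The other 2 sites named just inside had ratios of 1.42 and 2.94. Another 39 runs had 29 ChIP reads and would otherwise have passed. One of them, chr1:3334001-3335000, had 17 input reads and a ratio of 2.51, within the range of those just inside.

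The surroundings were sparse in dense bins but not in reads. Over 150 kb on each side, leaving out the first 2 kb, bins below 30 ChIP reads held 1.11 ChIP reads per kb (1.11 to 1.11) around isolated sites. Such bins held 1.19 per kb over the whole genome and 1.5 around close sites. Input stood at 4.18 reads per kb around isolated sites, 4.23 genome-wide and 4.89 around close sites. In the flanks of the median isolated site, the highest bin held 11 ChIP reads. At 18 isolated sites, or 0.846% (0.536 to 1.33%), 25% or more of the flanking bins had no read at all, beside 0.465% of all runs. The word sparse thus holds for the dense bins, which the rule fixed. Pooled over all isolated sites, both libraries read the surroundings at close to the genome's level.

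The placement of reads on the strands was not used by the rule. Where fragments share a centre, the 5′ ends of plus-strand reads lie to its left and those of minus-strand reads to its right, about 1 fragment apart. The cross-strand shift of all reads gave fragments of 220 bp in the ChIP and 205 bp in the input. With 200 bp added on each side and at least 5 reads per strand, the median minus-strand end lay to the right of the median plus-strand end at 2097 of 2126 isolated sites. This was 98.6% (98.1 to 99%), where 99% of all runs did so. In the input the same held at 1909 of 2114 sites, or 90.3% (89.0 to 91.5%), where the background was 95%. The median offset at isolated sites was 206 bp in the ChIP and 195.5 bp in the input, beside 235.5 and 219 bp at close sites. A ChIP offset from 150 to 300 bp was found at 70.5% of isolated and 87.2% of close sites, with 85.4% of all runs in that range. For the input these shares were 55.4%, 76.05% and 73.4%. At most isolated sites both libraries thus had the strand order of sheared fragments around a common centre. Offsets in that range were less frequent in the input, and offsets had a wider spread than at close sites.

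Within the sites, ChIP reads were gathered around a summit, and so were input reads to a lesser degree. The summit was placed with plus-strand reads alone, as the densest 200 bp, and minus-strand reads were then counted around it. Of the minus-strand ChIP reads in an isolated site and 1 kb on each side, 37.5% (37.2 to 37.7%) lay within 100 bp of the summit. In the input the share was 19.7% (19.4 to 20%), and an even spread would give 6.07%. At close sites the shares were 44.2% and 24.3%.

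The number of deposited lines behind each kept read split the isolated sites into 2 classes. A kept read stands for all lines with the same chromosome, 5′ end and strand. In the ChIP, isolated sites had a median of 1.25 lines per kept read with an interquartile range of 1.09 to 2.11, and close sites had a median of 2.14 with 1.74 to 2.64. The distribution had 2 modes. The lower one, between 1.07 and 1.15 lines per read, held 486 isolated sites. The upper one was broad, with 105 sites between 1.87 and 2 lines and still 102 between 2.46 and 2.64. Only 73 sites fell between 1.4 and 1.6 lines. With a limit of 1.5 set after the values were seen, 1199 of the 2127 isolated sites, 56.4% (54.3 to 58.5%), had few lines per read. Among close sites the share was 17.4% (16.8 to 18.0%), among wider runs 5.43%, and among all runs 21.2%. Genome-wide, bins below 30 ChIP reads had 1.58 lines per kept ChIP read and 1.1 per kept input read. The lower mode lay below this ChIP background. Few-line sites lie below it by definition, since the limit of 1.5 does.

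**Figure D1:**
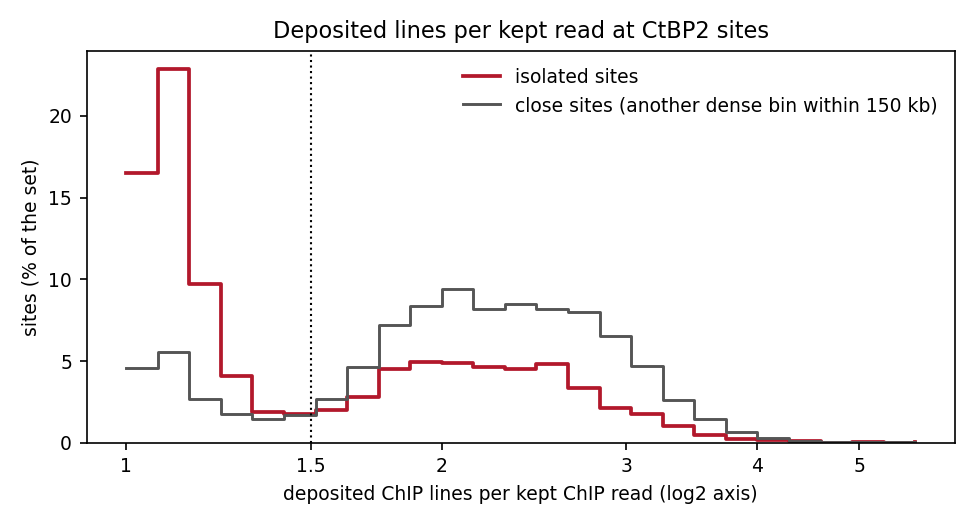
Share of sites (y axis, % of each set) by the number of deposited ChIP lines per kept ChIP read (x axis, log2 scale), for isolated sites in red and close sites in grey; the dotted line marks 1.5 lines per read. Both sets have a mode near 1.1 and a broad one from about 1.9 to 2.6 lines per read, and isolated sites are more frequent in the lower mode.

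The 2 classes also differed in lines per kept input read, which the ChIP lines do not enter. Fewer than 1.1 lines per kept input read were found at 1274 isolated sites, or 59.9%, beside 31.8% of all runs. Of the 1199 few-line sites 1094, or 91.2% (89.5 to 92.7%), were below 1.1 in the input. Of the 928 sites with 1.5 or more ChIP lines 180 were, or 19.4% (17.0 to 22.1%). The same contrast held at close sites, at 84.8% and 17.6%. Isolated sites with few ChIP lines also held fewer input reads, a median of 29 against 57. The part of input depth in this contrast was not tested. Lines per read are called few or many below by the ChIP limit of 1.5.

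Lines per read varied with read depth. The median at isolated sites was 1.19 where the densest bin held 30 to 59 ChIP reads, 1.12 from 60 to 119, 1.98 from 120 to 239 and 2.64 from 240 on. Within classes of like depth below 240 reads the share of few-line sites was larger at isolated than at close sites. Where the densest bin held 30 to 59 ChIP reads, 554 of 771 isolated sites (71.9%) and 1410 of 4075 close sites (34.6%) had few lines. From 60 to 119 reads the shares were 74.5% (558 of 749) and 33.4% (1065 of 3193). From 120 to 239 reads they were 34.5% (87 of 252) and 8.50% (217 of 2554). With 240 reads or more, 0 of 355 isolated and 19 of 5742 close sites had few lines. Between the lower depth classes the share at isolated sites did not fall, while above 120 reads it fell steeply.

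Few-line sites were the shallower of the classes. They held a median of 68 ChIP reads with an interquartile range of 44 to 103 and at most 263, while many-line sites held a median of 186 with 67 to 451 and up to 1386. The median ratio was 3.51 (interquartile range 2.80 to 4.28) against 5.23 (3.04 to 7.97). Pooled, it was 3.52 (3.48 to 3.56) at few-line and 6.34 (6.29 to 6.4) at many-line sites. Close sites had nearly the same medians within each class, 3.41 with few lines and 5.34 with many. All 405 isolated sites whose densest bin held at least 200 reads had many lines. Few-line sites held 1.12% of the library's ChIP reads and many-line sites 3.14%. Input in the surroundings stood at 4.49 reads per kb (4.48 to 4.49) for few-line sites, above the 4.23 genome-wide. For many-line sites it was 3.78 (3.78 to 3.79), below it. A single kilobase made up 77.7% of few-line sites and 57.7% of many-line sites.

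Individual sites show the classes at both ends of depth. These were chosen after their values were seen. The few-line site with the most ChIP reads, chr14:56813001-56815000, held 263 ChIP and 78 input reads, a ratio of 4.96, with 1.08 lines per ChIP read. Next came chr1:48602001-48604000, with 259 ChIP and 74 input reads, a ratio of 5.14 and 1.1 lines. At the other end, chr3:145883001-145884000 held 30 ChIP and 12 input reads but 1.90 lines per read. None of the 10 deepest sites and none of the 10 with the largest ratio had few lines: they ran from 2.08 to 3.86 lines per read. Of the 5 most remote sites, chr3:48125001-48126000 (1.13 lines) and the site on chromosome X at 25631001 (1.03 lines) had few.

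The classes also differed in shape. The median ChIP offset was 167.5 bp at few-line and 235 bp at many-line sites, and an offset of 150 to 300 bp was found at 678 of 1199 (56.5%) and 821 of 927 (88.6%). At close sites the medians were 173.5 and 238.5 bp. Within 100 bp of the summit lay 27.4% of the minus-strand ChIP reads at few-line sites and 41.4% at many-line sites. For the input these shares were 15.8% and 23.4%.

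Averaged over sites, minus-strand ChIP reads at the summit reached 68.4 per kb at few-line sites, 74.9 times their level 1500 to 2000 bp away. The profile was 550 bp wide at 50% of its height. At many-line sites they reached 325.4 per kb, 404 times the level at the edge, in a profile 300 bp wide. Minus-strand input reads were also peaked at the summit in both classes, to 24.1 per kb at few-line and 48.1 at many-line sites. Away from the summit the order turned: at 1500 to 2000 bp minus-strand input stood at 5.29 per kb beside few-line sites and at 2.04 beside many-line sites. ChIP reads there did not show this order to the same degree, at 0.913 and 0.806 per kb. At close sites input at the edge had the same order, 5.14 per kb for few-line and 3.06 for many-line sites. ChIP reads at the edge had the other order there, 1.11 for few-line and 1.85 for many-line sites, and the many-line ChIP summit was 208 times its edge. The rule bars other dense bins from this window at isolated sites but not at close sites. ChIP levels at the edge, and the multiples taken from them, are therefore not compared between isolated and close sites.

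**Figure D2:**
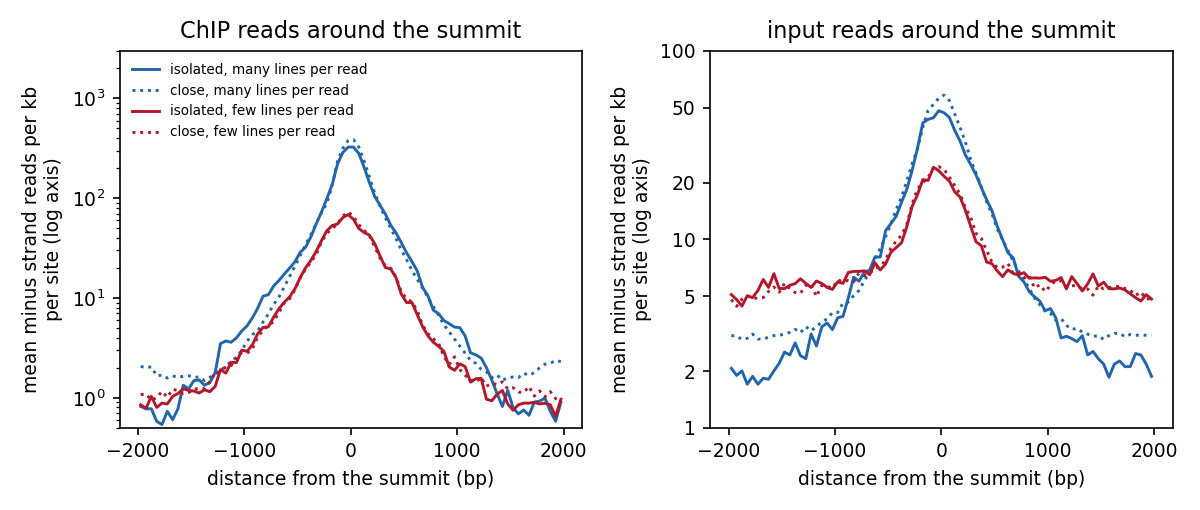
Mean minus-strand reads per kb and site (y axis, log scale) by distance from the plus-strand summit in bp (x axis), for ChIP on the left and input on the right, with isolated sites as solid and close sites as dotted lines. Few-line sites (red) have a lower summit in both libraries, 68.4 against 325.4 ChIP reads per kb at isolated sites, but a higher input level at the edge of the window.

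The raised input beside few-line sites reached several kilobases, and lay mostly on 1 side. From here on reads of both strands are counted. In the first kb outside few-line sites input averaged 11.9 reads per kb. It was 10.2 at 3 to 4 kb, 8.10 at 5 to 6 kb, 4.49 at 7 to 10 kb and 4.41 at 11 to 20 kb. Beside many-line sites it was 6.27 in the first kb and 3.67 by 3 to 4 kb. ChIP reads beside few-line sites followed in outline, from 4.98 per kb in the first kb through 1.73 at 3 to 4 kb to 1.12 at 7 to 10 kb. Over the same stretch the ChIP lines per kept read were low, 1.19 in the first kb and at 3 to 4 kb, and rose to 1.52 at 7 to 10 kb. The stretch beside the site thus had the low line count of the site itself.

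To read the sidedness without choosing it from the input, the side with more ChIP reads at 2 to 6 kb was taken, and input was then compared between sides. Input was higher on that same side at 1016 of 1150 few-line sites, 88.3% (86.4 to 90.1%), where 65.4% of all sites of 1 or 2 kb were. Another 48 few-line sites had equal ChIP reads on both sides and were left out, as were sites of either kind with a dense or left-out bin within 12 kb. On the ChIP-richer side input averaged 13.8 reads per kb at 2 to 6 kb, and on the other side 5.01, a ratio of 2.75. At 8 to 12 kb the sides stood at 4.41 and 4.42 reads per kb. Going outward on the richer side, input was 17.2 in the first kb, 15.4 in the second, 14.7 in the fourth, 9.64 in the sixth and 4.97 in the seventh. The raised stretch thus had an edge near 6 kb from the site. The other side was much lower but also slightly raised over that span. Its input was 5.15 (5.02 to 5.28) in the second kb, 4.98 in the fifth and 4.44 (4.32 to 4.57) in the sixth.

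At many-line sites the input was higher on the ChIP-richer side at 493 of 844, 58.4% (55.1 to 61.7%), and the sides averaged 4.17 and 3.34 reads per kb. Close few-line sites had the same side at 1882 of 2245, 83.8%, with 12.5 and 5.08 reads per kb, and close many-line sites at 57.6%. The one-sided stretch therefore went with few lines per read at isolated and close sites alike. Both libraries come from the same cells and were aligned to the same build, so agreement between them on a side is not a replicate. The sources used here do not give where reads with several equally good positions were put, and the part of this step in these values was not tested.

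**Figure D3:**
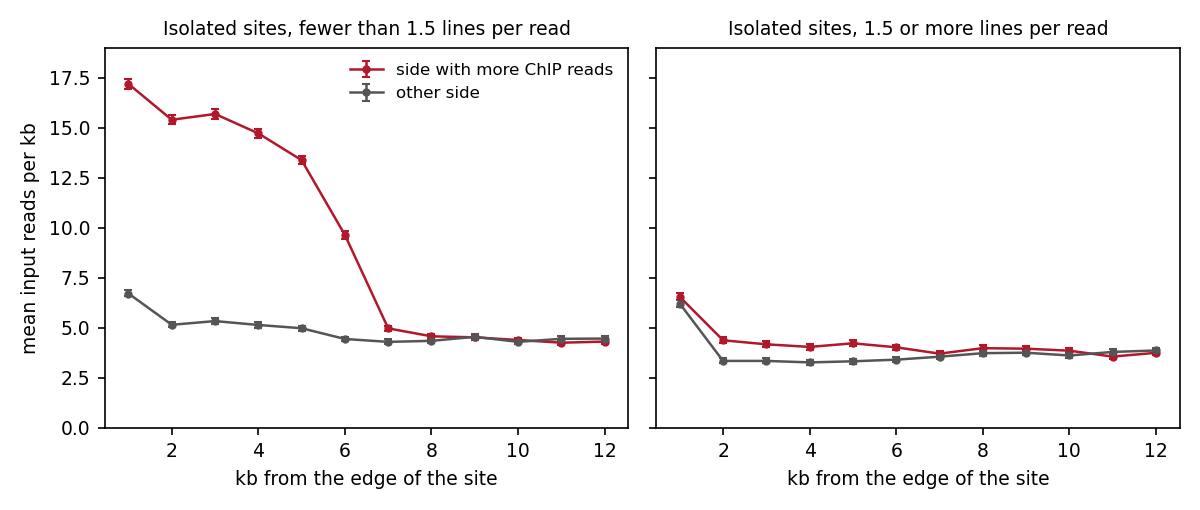
Mean input reads per kb (y axis, with 95% Poisson intervals) by distance from the edge of isolated sites in kb (x axis), on the side with more ChIP reads (red) and on the other side (grey), for few-line sites on the left and many-line sites on the right. Beside few-line sites the ChIP-richer side stays above 13 reads per kb through the fifth kb and meets the other side from about the seventh kb on.

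The share of few-line sites rose with the distance to the nearest other dense bin, also among sites that were not isolated. It was 6.91% of 2360 sites with another dense bin less than 5 kb away, and 9.57% from 5 to 19 kb. It was 16.9% from 20 to 49 kb, 28.2% from 50 to 99 kb and 35.7% from 100 to 149 kb. Among isolated sites it was 51.4% (48.9 to 53.9%) of 1522 sites from 150 to 299 kb and 69.1% (64.9 to 72.9%) of 517 sites from 300 to 599 kb. From 600 kb on it was 68.2% (57.9 to 77.0%) of 88 sites, not distinguishable from the step before. Depth changed with distance too. The median of ChIP reads per site rose from 132.5 in the nearest class to 209 from 20 to 49 kb, and fell to 71 from 300 to 599 kb. The part of depth in the share of few-line sites by distance was not tested. Intervals of neighbouring classes did not overlap at any step up to the class from 300 to 599 kb. The step at 150 kb, the limit that defines isolation, was 1 of these (33.3 to 38.2% from 100 to 149 kb). Finer classes around that limit were not run. Seen from the other end, 30.7% (29.2 to 32.1%) of the 3910 few-line sites of 1 or 2 kb were isolated, and 6.73% (6.33 to 7.16%) of the 13781 many-line sites. Over both classes 12% were.

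**Figure D4:**
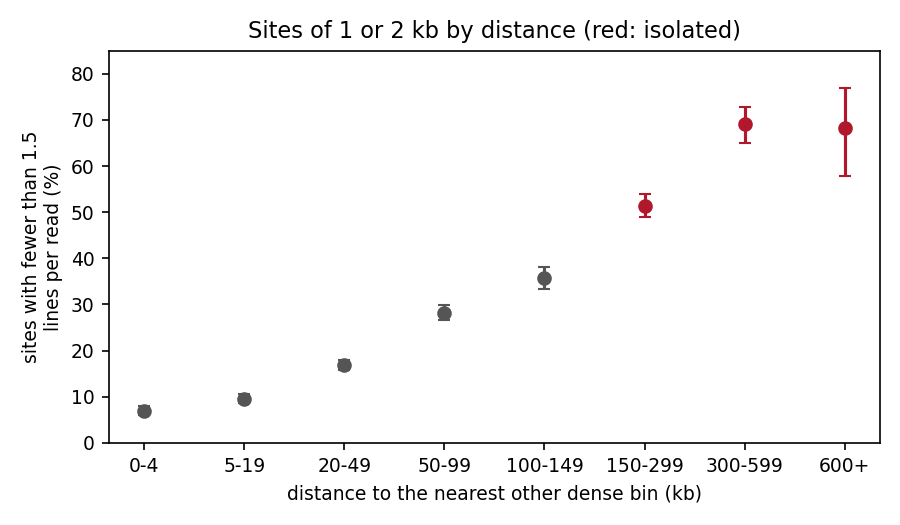
Share of 1 or 2 kb sites with fewer than 1.5 ChIP lines per kept read (y axis, %, with 95% Wilson intervals) by distance to the nearest other dense bin in kb (x axis), with isolated sites in red. The share rises from 6.91% in the nearest class to 69.1% from 300 to 599 kb and then levels off.

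Chromosome X had the most isolated sites for its length. It held 193, or 137 per 100 Mb of bins with reads (118 to 158, Poisson), followed by chromosomes 18 with 105, 16 with 101 and 3 with 101. The fewest were on chromosome 19, with 51.2 per 100 Mb (34.0 to 74.0), and chromosome 11, with 53.4 (40.8 to 68.8). Isolated sites made up 27.4% (24.2 to 30.8%) of the 705 runs on chromosome X but 4.38% of the 1371 runs on chromosome 11. Runs that were not isolated went the other way, at 363 per 100 Mb on X and 1168 on 11.

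The high density on X came with few-line sites. They stood at 90.1 per 100 Mb there, against 23.8 on chromosome 19 to 63.3 on chromosome 16 among autosomes. Many-line sites stood at 46.8 per 100 Mb on X, within the autosomal range of 26.7 on chromosome 11 to 50.7 on chromosome 18. On X 65.8% (58.9 to 72.1%) of isolated sites had few lines, and the autosomes ran from 43.2% on chromosome 9 to 64.1% on chromosome 12. In bins below 30 ChIP reads, X held 0.935 ChIP and 3.85 input reads per kb, beside 1.19 and 4.23 over all chromosomes. The part of this lower depth in the count of sites was not tested.

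**Figure D5:**
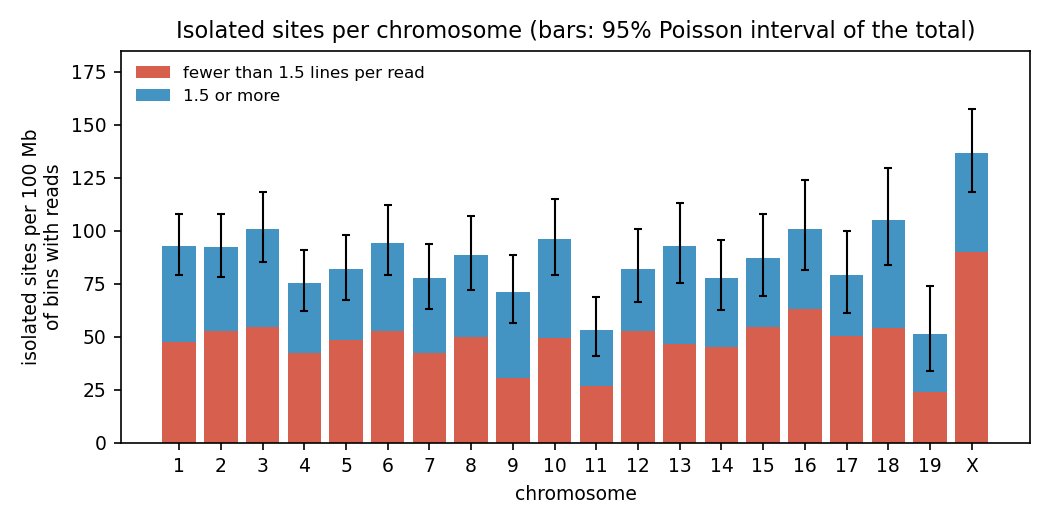
Isolated sites per 100 Mb of bins with reads (y axis) on each chromosome (x axis), split into sites with fewer than 1.5 lines per kept ChIP read (red) and the others (blue), with 95% Poisson intervals of the total. Chromosome X stands highest at 137 and chromosomes 19 and 11 lowest at 51.2 and 53.4.

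A small group of isolated sites had strand offsets near the read length in both libraries. At 21 of 2113 sites, or 0.994%, the strand offset was 25 to 50 bp in both libraries, close to the commonest read length of 36 bp. Among all runs 0.542% had such offsets. In the ChIP alone, whatever the input offset, 79 of 2126 isolated sites (3.72%) were in that range, beside 1.71% of all runs. All 21 sites with such offsets in both libraries were 1 kb wide, and their ratios had a median of 1.72 and ran from 0.764 to 3.20. Their ChIP lines per read had a median of 8.62 and reached 114. The extreme case, singled out after its values were seen, was chr8:121371001-121372000, with 33 ChIP and 28 input reads. It had 114 ChIP lines and 116 input lines per kept read, and 995 ChIP lines shared 1 position and strand. Another, chrX:84483001-84484000, held 70 ChIP and 58 input reads with 28.1 ChIP lines per read. In all 17 isolated sites, or 0.799% (0.4996 to 1.276%), had more than 5 ChIP lines per read, beside 0.519% of all runs.

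At 8 isolated sites, or 0.376% (0.191 to 0.740%), the ratio was below 1, where 0.551% of all runs were. They were picked out for that value. The lowest, chr8:56205001-56206000, had 30 ChIP and 182 input reads and a ratio of 0.242. It was followed by chr17:13498001-13499000 with 30 ChIP and 133 input reads (0.332), chr16:3114001-3115000 with 32 and 90 (0.522) and chr6:103264001-103265000 with 78 and 150 (0.764). The other 4 lay between 0.855 and 0.972. With the input scaled by bins below 30 ChIP reads, the first 2 had ratios of 0.585 and 0.801, and the others turned to between 1.26 and 2.35. None of the 8 was on chromosome X, which held 193 of all 2127 isolated sites, so this absence carries little weight. These sites passed the rule because it set a minimum of ChIP reads and of input reads, and no minimum of the ratio.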

How the data were processed

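Per the submitters' processing notes, reads were handled with BWA, SAMtools 0.1.19 and bedtools 2.17.0 on build mm9. The mapping filter and the placement of reads with several matches are not given in the sources used here. The deposited files list aligned reads of 33 to 38 bp, and all values are read counts made from them. One read was kept per chromosome, 5′ end and strand, and 5′ ends were counted in 1 kb bins without being moved. To place the summit and count reads around it, 5′ ends were moved by 110 bp towards the fragment centre. There were 26 bins of 10 kb with 4200 or more input lines, which were left out. Intervals are Poisson, Wilson or exact. Python 3.11.15 was used with NumPy 2.4.6, pandas 2.3.3, SciPy 1.17.1 and matplotlib 3.10.9, and the scripts were tested on simulated data. The rule for the sites and the lists were chosen with earlier results of these data known. Named sites were the 10 with most ChIP reads, the 10 with the largest ratio, the 5 farthest from a dense bin and 3 on each side of the read limit, and other named sites were picked after their values were seen. The limit of 1.5 lines, the comparison of sides and the class of short offsets were also set after seeing the data. The planned description of nearby genes and sequences was not made, because no annotation or sequence of mm9 was used here.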

Additional observations from a re-analysis of the deposited data

Results flagged for a closer look

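Chromosome Y was outside the rule, and reads were dense there as well. On it 21 runs of bins passed both read limits, and 2 of them also met the limits on width and distance. The site at chrY:1109001-1110000 held 108 ChIP and 36 input reads, a ratio of 4.41 (3 to 6.62). The site at chrY:1460001-1461000 held 38 ChIP and 24 input reads, a ratio of 2.33 (1.36 to 4.05).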

How the results depend on the processing

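The number of isolated sites depended on the distance set: 3580 at 100 kb and 1377 at 200 kb, while the other 8 alternatives gave 1900 to 2250. The pooled ratio of 5.23 was 12.6 with input scaled on bins below 30 ChIP reads, 4.01 with all lines and 4.47 with 500 bp added on each side. Positive ChIP offsets, 98.6% of sites, were 95.8% with no flank and 99.2% with mean positions. The share near the summit, 37.5%, was 63.0% within 200 bp and 36.8% with 2 kb on each side. The surroundings, 1.11 ChIP reads per kb, were 1.13 over 50 kb and 1.73 with all lines. The share of few-line sites, 56.4%, was 52.7% at a limit of 1.3 and 60.4% at 1.7. It was 47.6% at sites with a bin of 60 reads, 48.0% at 100 kb, 60.8% at 200 kb and 52.8% with 40 reads per bin; these alternatives were chosen after seeing the data. In every setting run for both, it was above that of close sites, which ran from 11.3% to 23.4%. No paired analysis was possible because ChIP and input were 1 library each. The alternatives for genes and sequences were not run. Depth limits single ratios at sites near 30 reads.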
